A study of Mus musculus with 31 samples.

Results

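The genes of the collagen chains were read in liver and epididymal fat of mice kept in intermittent hypoxia (IH) or in normoxia (NO). They were taken as every gene whose symbol in the array's annotation starts with Col and a digit and goes on with a and a digit. This gave 59 probes of 37 genes, out of 16593 genes with a symbol on an array of 25697 probes. Of the 37 genes, 25 had 1 probe and 12 had several.

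The mice were male C57BL/6JRj mice, 16 weeks old, of 1 strain in every group. The IH groups received 14 days of hypoxic cycles, 8 h each day in the light phase. A cycle took 60 s, of which the FiO2 was 5% for 30 s and 21% for 30 s. The NO groups breathed cycles of air, at 21% throughout, on the same schedule. Tissue was then collected, and 250 ng of RNA per sample was hybridized to Illumina MouseRef-8 BeadChips. There were 8 arrays of NO liver, 7 of IH liver, 8 of NO fat and 8 of IH fat. RNA came from bulk tissue with all its cell types, so fewer cells of a type and less RNA per cell cannot be told apart in any value below. The cage of a mouse is not given in the sources used here, so p-values measure the spread between these samples only.

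Collagens are proteins whose alpha chains wind around each other into a long helix, and each chain has its own gene. Types I, III and V build the banded fibrils of connective tissue, type IV builds the sheet of the basement membrane, and type VI builds beaded filaments that surround fat cells and muscle fibers. Other types coat fibrils, span cell membranes or, as the multiplexins XV and XVIII, carry sugar chains at basement membranes. In fat every adipocyte lies in a basement membrane rich in types IV and VI. In a healthy liver little fibrillar collagen is made, chiefly by stellate cells and portal fibroblasts, while hepatocytes are a known source of type XVIII.

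Some arrays and chips stood apart in ways that touch every result. Between 8359 and 9293 of all probes were detected on a liver array and between 10261 and 12340 on a fat array. The arrays lay on 6 chips, and within a tissue each chip held 1 exposure only, so chip and exposure cannot be told apart there. On 3 fat arrays, NO replicate 4 and IH replicates 16 and 19, genes of epididymis epithelium were detected. The summed linear signal of 8 epididymis genes was 8144, 84720 and 126700 on these, against 195.1 to 233.6 on the other 13. IH replicate 19 also had the lowest summed signal of 9 adipocyte genes, 22650 against 52890 to 87050 on the other fat arrays. The labelled tissues otherwise carried their markers, with all 12 hepatocyte genes detected in liver, all 9 adipocyte genes detected in fat, and neither Fabp4 nor Plin1 detected on any liver array. In liver 2 of the 9 adipocyte genes passed detection, Pck1 and Pparg. In fat 4 of the 12 hepatocyte genes passed detection, and Alb was detected on no fat array.

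Collagen chain genes were detected far more widely in fat than in liver. A probe counted as detected on an array when its detection p-value was under 0.01, and it was kept for a tissue when detected on at least 7 liver or 8 fat arrays, the size of the smaller group. By this rule 6 of the 37 genes were kept in liver and 18 in fat. The 6 kept in liver, Col4a1, Col4a2, Col5a1, Col6a1, Col15a1 and Col18a1, were all kept in fat too, 12 genes were kept in fat alone, and 19 in neither tissue. As a share of probes, 11.9% of collagen probes were kept in liver, where 34.6% of all probes were. In fat 40.7% were kept, where 44.7% of all probes were. Per array, 4 to 11 collagen probes were detected in NO liver (median 7.5), 6 to 9 in IH liver (median 8), 19 to 25 in NO fat (median 21) and 22 to 27 in IH fat (median 24.5).

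The kept genes were spread unevenly over the collagen classes. Of 11 fibril-forming genes, 1 was kept in liver (Col5a1) and 6 in fat (Col1a1, Col1a2, Col3a1, Col5a1, Col5a2 and Col5a3). Of 6 basement membrane genes of type IV, 2 were kept in liver and 4 in fat, Col4a1, Col4a2, Col4a4 and Col4a5. Of 3 beaded filament genes, Col6a1 was kept in both tissues and Col6a2 in fat. Both multiplexins, Col15a1 and Col18a1, were kept in both tissues. The fibril-associated Col14a1 and Col16a1 (of 6 genes) and the transmembrane Col17a1 and Col23a1 (of 4) were kept in fat alone. Of 3 network and anchoring genes and 2 others, 0 were kept in either tissue. Detection failed on every array for 10 genes, Col2a1, Col6a6, Col9a2, Col9a3, Col10a1, Col13a1, Col19a1, Col24a1, Col25a1 and Col26a1, several of which are known from cartilage or nerve.

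Of the 19 genes kept in neither tissue, 9 fell short of the limit after detection on a few arrays. Nearest to it were Col4a3, a partner of Col4a4 in the basement membrane of the kidney, and Col7a1, which anchors skin epithelium. Each of these was detected on 1 of 8 NO and 5 of 8 IH fat arrays. Just inside the limit lay Col4a4 in fat (3 of 8 NO and 5 of 8 IH arrays) and Col6a1 in liver (3 of 8 NO and 5 of 7 IH arrays). Col27a1, a fibril former of cartilage, reached 1 of 8 NO and 3 of 7 IH arrays in liver. The other 6, Col4a6, Col8a2, Col9a1, Col11a1, Col11a2 and Col28a1, were detected on at most 4 arrays of a tissue. Col6a3 was not analysed here.

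**Figure D1:**
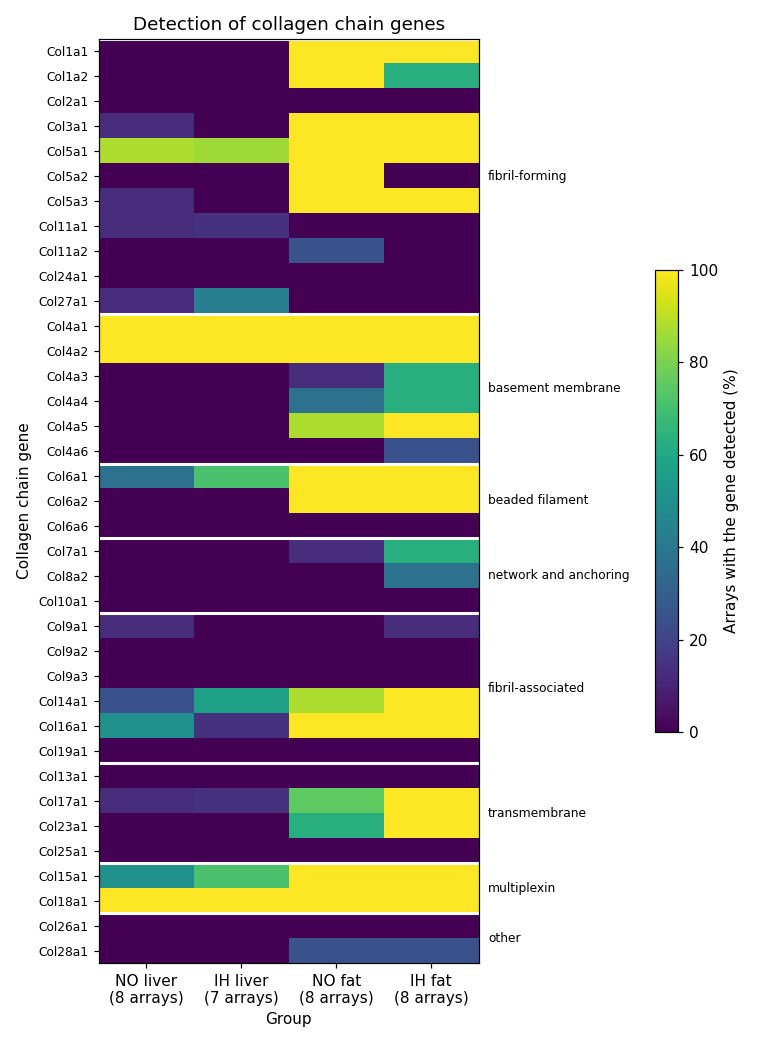
Share of arrays (color, in percent) on which each collagen gene was detected, with 1 row per gene ordered by class and 1 column per group (8 NO liver, 7 IH liver, 8 NO fat and 8 IH fat arrays). Most filled cells lie in the fat columns, where 18 genes were kept, and 10 genes were detected on no array.

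In liver 0 of the 6 kept collagen genes differed between IH and NO. Across all genes, 0.931% of 6443 were called at an adjusted p under 0.05 (limma, Benjamini-Hochberg over all genes tested). No collagen gene reached an unadjusted p under 0.05 or passed the SAM statistic, and the median difference of the 6 was −0.05 on the log2 scale, beside −0.01 over all genes tested. The values below are log2 intensities after background correction and quantile normalization within a tissue.

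Col18a1, whose chain carries endostatin at its end, lay between 12.69 and 13.31 in NO liver (median 12.99) and between 12.89 and 13.29 in IH liver (median 13.16). The IH range lay within the NO range. The means were 13.00 ± 0.18 (SD, n = 8) and 13.13 ± 0.14 (SD, n = 7), a difference of 0.13 (standard error 0.09, adjusted p = 0.536 from limma). A second Col18a1 probe differed by 0.26 (adjusted p = 0.291 over all kept probes).

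The chains of the common type IV collagen, Col4a1 and Col4a2, were at a middle level on the liver arrays. Col4a1 ranged from 7.67 to 8.76 in NO liver (median 8.17) and from 7.55 to 8.38 in IH liver (median 7.95), with means of 8.18 ± 0.34 (SD, n = 8) and 7.94 ± 0.34 (SD, n = 7). Col4a2 ranged from 6.90 to 8.91 (median 7.32) and from 6.75 to 7.93 (median 7.58). The groups overlapped for both genes. The differences were −0.24 (standard error 0.17, adjusted p = 0.513) and −0.13 (standard error 0.29, adjusted p = 0.867, limma). For both chains NO replicate 2 and IH replicate 21 were the highest of their group, and IH replicate 16 the lowest of its group.

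Col5a1, a chain of the type V collagen that sets fibril width, had the largest difference of the 6 in liver. It ranged from 6.01 to 7.35 in NO liver (median 6.99) and from 6.04 to 6.94 in IH liver (median 6.50). Only 1 of 7 IH livers lay above the NO mean, yet the groups overlapped. The difference was −0.39 (standard error 0.20, adjusted p = 0.340 from limma, two-sided exact permutation p = 0.0894). Col15a1 ranged from 5.37 to 6.99 in NO liver (median 6.51) and from 5.33 to 7.51 in IH liver (median 6.57), a difference of 0.10 (standard error 0.33, adjusted p = 0.922). Col6a1 ranged from 5.15 to 7.51 (median 6.17) and from 5.96 to 6.46 (median 6.32), a difference of 0.03 (standard error 0.26, adjusted p = 0.971). Both were dim in liver, each detected on 5 of 7 IH arrays and on 4 (Col15a1) or 3 (Col6a1) of 8 NO arrays.

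In fat 8 of the 18 kept collagen genes differed between IH and NO, 5 higher and 3 lower in IH. The fibril chains Col3a1, Col5a2 and Col1a2 fell, and Col1a1, Col6a1, Col6a2, Col23a1 and Col4a4 rose. The call was common in fat as a whole, at 32.1% of 8207 genes, with 17.6% higher and 14.5% lower. The 8 of 18 (44.4%) are to be read against that share, and Col5a2 passed the detection limit through its NO arrays alone. The median difference of the 18 was 0.26 on the log2 scale, beside 0.11 over all genes tested, and 13 of the 18 lay above 0. All 8 calls were kept when any 1 fat array was left out (highest adjusted p = 0.0324, limma). With the 3 arrays that carried epididymis genes left out, a choice made after seeing the data, 8 of 18 were again called, 5 higher and 3 lower, beside 31.5% of 8295 genes.

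Col3a1, the chain of the type III collagen of soft tissues, had the largest difference of any collagen gene in fat. Its log2 intensity lay between 9.64 and 10.79 in NO fat (median 10.41) and between 6.11 and 7.70 in IH fat (median 7.22). Every IH array lay below every NO array. The means were 10.30 ± 0.41 (SD, n = 8) and 7.10 ± 0.49 (SD, n = 8), a fall of 9.22-fold (log2 difference −3.20, standard error 0.21, adjusted p = 1.88e-09 from limma).

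This value holds for 1 of the 2 kept Col3a1 probes. The other, dimmer probe had 6.15 ± 0.81 (SD, n = 8) in NO fat and 5.98 ± 0.34 (SD, n = 8) in IH fat, a difference of −0.17 (standard error 0.29, adjusted p = 0.685 over all kept probes, limma). The groups overlapped on it. Such a split was common for large falls in fat. Of 339 genes with several kept probes of which 1 was called lower by over 1 on the log2 scale, 260 had another kept probe within 0.5 of 0, against 3 of 25 genes with a probe called higher by over 1. The cause was not tested.

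Col5a2 and Col1a2 fell as well. Col5a2, the partner chain of Col5a1, lay between 5.84 and 6.67 in NO fat (median 6.39) and between 4.44 and 4.90 in IH fat (median 4.71). It was detected on all 8 NO arrays, and on the IH arrays it never rose above background. The fold is therefore a bound, with Col5a2 at least 2.13-fold lower in IH fat (adjusted p = 5.55e-09 from limma). The bound sets the NO mean against the mean, over IH arrays, of the higher of the probe's own signal and the lowest detected signal of that array.

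Col1a2, the second chain of type I collagen, ranged from 6.25 to 7.34 in NO fat (median 6.74) and from 4.89 to 5.79 in IH fat (median 5.31). The groups did not overlap, and the probe was detected on 5 of 8 IH arrays. The means of 6.77 ± 0.38 and 5.33 ± 0.28 (SD, n = 8 each) differed 2.72-fold (log2 difference −1.45, standard error 0.16, adjusted p = 1.79e-06, limma). For Col3a1 and Col1a2 the two-sided exact permutation p was 0.000155, the smallest that 8 arrays against 8 allow. Col5a2 had the same value, but it passed the detection limit through its NO arrays alone. Its separation and its p-values are therefore partly built into that choice. Groups that do not overlap were found for 897 of 8207 genes in fat.

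Col1a1, the main chain of type I collagen, rose while its partner fell. It ranged from 6.66 to 8.83 in NO fat (median 7.56) and from 8.66 to 9.72 in IH fat (median 8.98). All 8 IH arrays lay above the NO mean, and the groups overlapped only slightly. The means were 7.72 ± 0.66 and 9.14 ± 0.41 (SD, n = 8 each), a 2.68-fold difference (log2 difference 1.42, standard error 0.26, adjusted p = 0.000429 from limma). Col1a1, Col1a2 and Col5a2 each had 1 probe on the array, so no second probe could be set beside any of these values.

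The beaded filament chains Col6a1 and Col6a2 were both higher in IH fat. Col6a2 ranged from 7.00 to 8.28 in NO fat (median 7.81) and from 8.20 to 9.31 in IH fat (median 8.76), with means of 7.73 ± 0.48 and 8.76 ± 0.36 (SD, n = 8 each). It was 2.04-fold higher (log2 difference 1.03, standard error 0.20, adjusted p = 0.000929, limma). Col6a1 ranged from 10.91 to 12.26 (median 11.70) and from 11.93 to 12.58 (median 12.24), and was 1.52-fold higher (log2 difference 0.60, standard error 0.18, adjusted p = 0.0154, limma). All 8 IH arrays lay above the NO mean for both genes, and the groups overlapped. The Col6a1 rise was seen on the brightest of 3 kept probes. The other 2 differed by −0.05 (adjusted p = 0.842 over all kept probes) and 0.02 (adjusted p = 0.939), and the mean of the 3 probes differed by 0.19, which was not called (adjusted p = 0.350, limma).

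**Figure D2:**
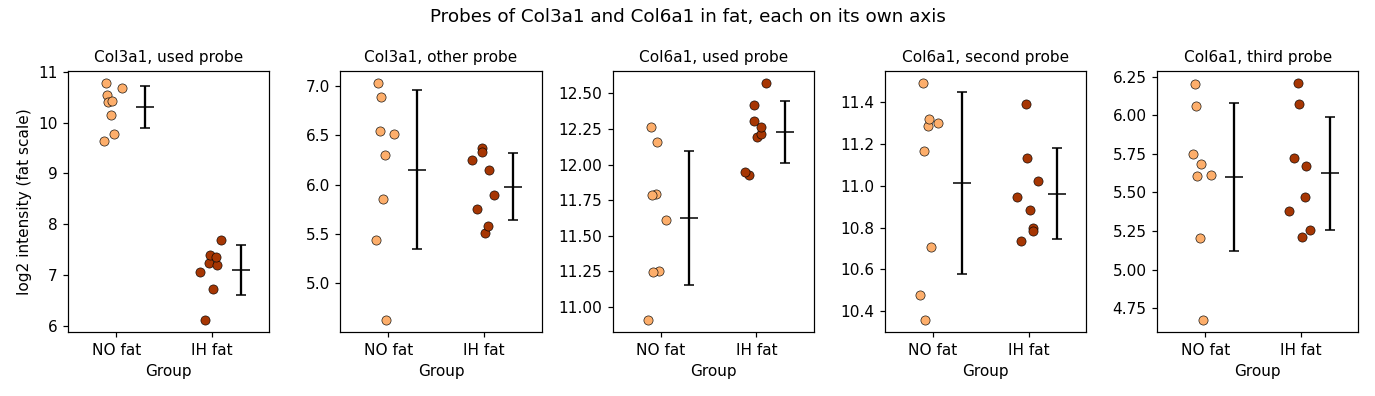
Log2 intensity on each fat array for the 2 kept probes of Col3a1 and the 3 of Col6a1, in NO and IH fat (8 arrays each), with a black bar for the mean ± SD. The used Col3a1 probe falls from a mean of 10.30 to 7.10 while its other probe differs by −0.17, and only the used Col6a1 probe is called higher.

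A pair of chains with a narrower distribution in the body rose from a low level. Col23a1, a transmembrane collagen, ranged from 5.20 to 5.95 in NO fat (median 5.68, detected on 5 of 8 arrays) and from 5.90 to 7.97 in IH fat (median 6.53, detected on 8 of 8). The difference was 1.03 (standard error 0.24, adjusted p = 0.00342, limma). Col4a4, a type IV chain best known from the kidney glomerulus, ranged from 4.56 to 5.51 (median 5.08) and from 5.08 to 7.05 (median 6.12), a difference of 0.95 (standard error 0.25, adjusted p = 0.00783, limma). Most values of Col4a4 lay at the edge of detection, and its highest IH value was on replicate 19, an array with epididymis genes. Without the 3 arrays that carried these genes it differed by 0.72 (adjusted p = 0.0350, limma). The groups overlapped for both genes.

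**Figure D3:**
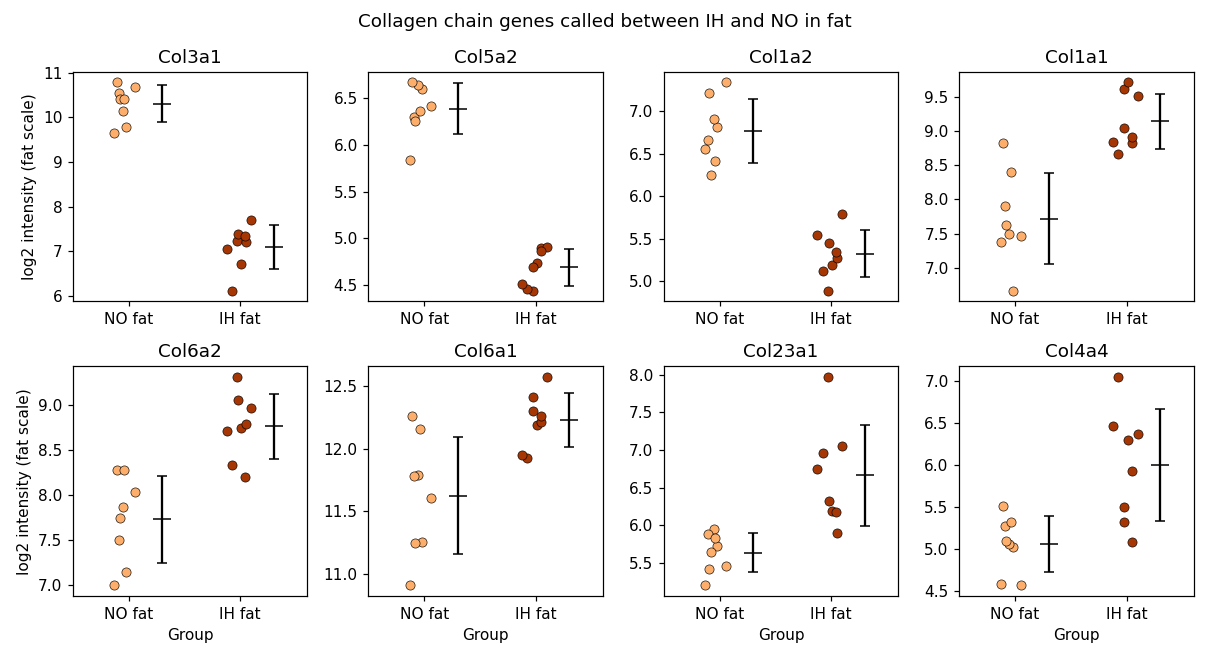
Log2 intensity on each fat array for the 8 collagen genes called in fat, NO and IH side by side (8 arrays each), with a black bar for the mean ± SD. Col3a1, Col5a2 and Col1a2 show no overlap between the groups, and for the other 5 genes every IH array lies above the NO mean.

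Basement membrane chains and multiplexins that are bright in fat differed less. Col4a1 ranged from 12.40 to 13.49 in NO fat (median 12.88) and from 11.32 to 14.04 in IH fat (median 13.22), a difference of 0.19 (standard error 0.33, adjusted p = 0.691). Col4a2 ranged from 11.79 to 12.72 (median 12.34) and from 11.10 to 13.18 (median 12.93), a difference of 0.25 (standard error 0.26, adjusted p = 0.479). The IH arrays spread more widely than the NO arrays on both, and IH replicate 19 was the lowest on both. Without IH replicate 19 Col4a2 differed by 0.46 and was called (adjusted p = 0.0498, limma), and Col4a1 differed by 0.44 and was not (adjusted p = 0.183).

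Col5a1 had 11.21 ± 0.20 (SD, n = 8) in NO fat and 11.05 ± 0.59 (SD, n = 8) in IH fat, a difference of −0.16 (standard error 0.21, adjusted p = 0.598). Its sign turned without the 3 arrays that carried epididymis genes, to 0.11 (adjusted p = 0.518). Col15a1 had 10.21 ± 0.75 and 10.30 ± 0.67 (SD, n = 8 each), a difference of 0.08 (standard error 0.33, adjusted p = 0.870). For Col18a1 the difference was 0.04 (standard error 0.12, adjusted p = 0.845). All these groups overlapped.

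The other 5 kept genes were not called either. Col4a5, the X-linked partner of Col4a4, differed by 0.49 (adjusted p = 0.0820, limma). The fibril-associated Col16a1 and Col14a1 differed by 0.76 (adjusted p = 0.133) and 0.28 (adjusted p = 0.220). Col17a1, a collagen of the junctions that fix epithelium to its basement membrane, differed by 0.26 (adjusted p = 0.654) and was highest on IH replicate 19. Without the 3 arrays that carried epididymis genes its sign turned, to −0.079 (adjusted p = 0.904). Col5a3, the third type V chain, differed by −0.19 (adjusted p = 0.592).

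**Figure D4:**
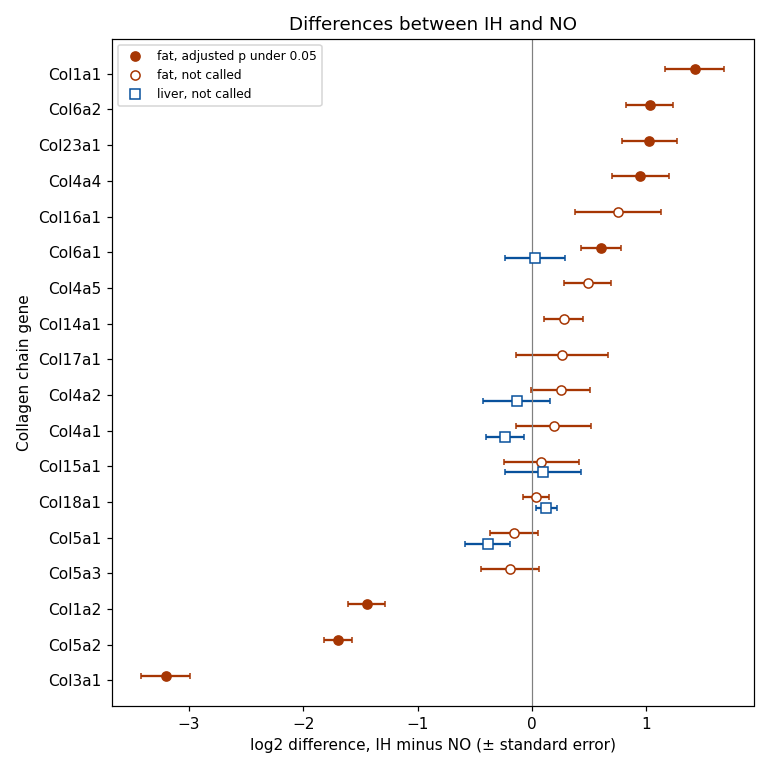
Difference between IH and NO on the log2 scale for the collagen genes kept in each tissue, with bars for the standard error and filled points for genes called at an adjusted p under 0.05. The 6 liver points lie between −0.39 and 0.13 and are all open, while in fat the points run from −3.20 for Col3a1 to 1.42 for Col1a1.

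Chip and some cell type markers moved with exposure in fat. The NO arrays lay on chips 3 and 4 and the IH arrays on chips 5 and 6. For all 8 called genes both NO chip means lay on the same side of both IH chip means. These genes were chosen by the difference between exposures, so this order is largely given. Col3a1 averaged 10.03 and 10.46 on the NO chips and 6.93 and 7.37 on the IH chips, and Col1a1 averaged 7.17 and 8.05, then 9.17 and 9.09. With chip as a random block 8 genes were again called, and the share over all genes was not counted. As each chip lies within an exposure, neither result can tell chip from exposure. The summed linear signal of 8 smooth muscle genes, 7 of them detected, ran from 12580 to 39140 in NO fat (median 20200) and from 27260 to 85380 in IH fat (median 34290), with Cnn1 on no NO array. The 39140 was on NO replicate 4, an array with epididymis genes, and the other NO arrays reached 26450 at most. Of the 7 detected genes, 4 were called higher (Acta2, Mylk, Myh11 and Smtn) and 0 lower, where 17.6% of all genes tested in fat were higher. The summed signal of the 9 adipocyte genes, all detected, ran from 56400 to 87050 in NO fat (median 70640) and from 22650 to 73520 in IH fat (median 60930). Of these 3 were lower and 0 higher, Fabp4 (−3.34), Pck1 (−3.28) and Retn (−0.76), each on its only kept probe. The 9 mesothelium genes, which line the depot, summed to 1925 to 5314 in NO fat and 1416 to 10980 in IH fat. The 10980 was on IH replicate 19, an array with epididymis genes, and the other IH arrays reached 5984 at most. Gpm6a (−2.86), Lrrn4 (−1.89) and Wt1 (−0.81) were lower and Krt19 (1.34) higher, each on its only kept probe. Marker calls were not recounted without the 3 arrays that carried epididymis genes. The 11 genes of fibroblasts and adipose stroma, all detected, summed to 27500 to 38210 and 18720 to 36500, with Thy1 (0.73) and Dpp4 (0.95) higher. The 18720 was again on IH replicate 19. The 9 endothelial genes summed to 12560 to 20920 and 5902 to 25350, with Kdr (−0.62) lower. The macrophage marker Adgre1 was lower as well (−2.81), 1 of 4 measured genes of its list. Over all genes tested in fat 32.1% were called, 17.6% higher and 14.5% lower. The adipocyte calls were all lower, 3 of 9, a larger share than the 14.5%. The called shares of the stroma, endothelial and macrophage lists lay below the 32.1%. These counts do not set those lists apart. The part of any of the marker lists above in the collagen differences was not tested.

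Promoter sequence is shown for genes that fell (Col3a1, Col1a2) and rose (Col6a1, Col6a2) in fat, as the 250 bases before the annotated start on the gene's strand. Capitals mark matches to 3 known promoter motifs, searched on both strands. The TATA box, which places the start of transcription, was read as TATAAA. The CCAAT box was read as the letters of its name. The GC box, a known site of factors of the SP family, was read as GGGCGG, and its copies can overlap each other. The sequences are from RefSeq (GRCm38.p6), at chr1:45311288-45311537 (plus strand) for Col3a1, chr6:4505368-4505617 (plus strand) for Col1a2, chr10:76726045-76726294 (minus strand) for Col6a1 and chr10:76623631-76623880 (minus strand) for the outer of 2 annotated starts of Col6a2.
Col3a1: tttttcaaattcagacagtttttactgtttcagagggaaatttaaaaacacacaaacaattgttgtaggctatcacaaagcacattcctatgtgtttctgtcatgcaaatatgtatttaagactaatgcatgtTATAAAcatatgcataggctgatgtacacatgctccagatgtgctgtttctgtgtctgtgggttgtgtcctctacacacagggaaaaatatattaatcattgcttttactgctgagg
Col1a2: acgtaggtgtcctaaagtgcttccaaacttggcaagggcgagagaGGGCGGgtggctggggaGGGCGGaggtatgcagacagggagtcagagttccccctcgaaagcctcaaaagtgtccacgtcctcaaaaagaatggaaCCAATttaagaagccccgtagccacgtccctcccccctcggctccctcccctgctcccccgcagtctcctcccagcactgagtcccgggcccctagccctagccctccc
Col6a1: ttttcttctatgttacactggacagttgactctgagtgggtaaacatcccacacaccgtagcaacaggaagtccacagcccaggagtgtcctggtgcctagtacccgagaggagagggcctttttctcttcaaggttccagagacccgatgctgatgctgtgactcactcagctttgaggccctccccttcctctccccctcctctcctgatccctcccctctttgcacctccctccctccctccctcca
Col6a2: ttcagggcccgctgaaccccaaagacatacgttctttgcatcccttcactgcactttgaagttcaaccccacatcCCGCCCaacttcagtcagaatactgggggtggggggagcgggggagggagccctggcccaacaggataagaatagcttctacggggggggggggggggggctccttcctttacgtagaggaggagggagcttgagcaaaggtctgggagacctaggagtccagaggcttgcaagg
In these windows Col3a1 held a TATA box that begins 117 bases before its start, and Col1a2 a CCAAT box at 109 bases and GC boxes at 205 and 188 bases. Col6a2 held 1 GC box, at 175 bases. The window before its inner start held 3 GC boxes, at 67, 15 and 11 bases. Col6a1 held 0 of the 3 motifs.

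Over the family, 30 of the 37 genes had a promoter in the table, 33 stretches in all. A TATA box was in 15.2% of these and in 12.4% of all 32851 promoters, a CCAAT box in 36.4% and 33.8%, and a GC box in 57.6% and 32.7%. These are matches of letters only. In all, 6 pairs of collagen genes are neighbors in the annotation. In fat Col3a1 and its neighbor Col5a2 on chromosome 1 both fell, and Col6a1 and its neighbor Col6a2 on chromosome 10 both rose. Col3a1 and Col6a1 were called on their brightest kept probe only. Of the other pairs, Col4a1 and Col4a2 were not called in fat. Col4a4 with Col4a3, Col4a5 with Col4a6, and Col9a1 with Col19a1 each include a gene not kept there. Col4a1 and Col4a2 on chromosome 8 lie head to head on opposite strands, with annotated first exons that overlap by 22 bases.

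Partner chains of 1 collagen molecule were compared across the 8 NO arrays of a tissue, in 6 relations (exact two-sided permutation p over all pairings, adjusted over the 6). In NO liver Col4a1 and Col4a2 varied together, with a Pearson r of 0.900 (exact p = 0.00131, adjusted 0.00789) and a Spearman rho of 0.833 (exact p = 0.0154, adjusted 0.0436). In NO fat the same chains had r = 0.906 (exact p = 0.0033, adjusted 0.0099) and rho = 0.905 (exact p = 0.00456, adjusted 0.0274). Col6a1 and Col6a2 had r = 0.856 (exact p = 0.00838, adjusted 0.0168) and rho = 0.810 (exact p = 0.0218, adjusted 0.0436). After the 2 arrays farthest from the median of the first gene were left out, r was 0.847, 0.817 and 0.690 for these 3 relations. Other pairs of genes were not correlated on these arrays, so the calls do not set partner chains apart.

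The fibril chains gave no call. Col1a1 and Col3a1, which assemble into mixed fibrils, had r = 0.712 in NO fat (exact p = 0.0459, adjusted 0.0688) and rho = 0.714 (exact p = 0.0576, adjusted 0.0864), and r fell to 0.390 without 2 arrays, so the value rests on those arrays. Col5a1 and Col5a2 had r = 0.556 (exact p = 0.155, adjusted 0.186) and rho = 0.238 (exact p = 0.582, adjusted 0.582). Col1a1 and Col1a2, the chains of 1 molecule, had r = −0.216 (exact p = 0.610, adjusted 0.610) and rho = −0.238 (exact p = 0.582, adjusted 0.582). The NO liver arrays shared 1 chip. The NO fat arrays lay on 2 chips with 3 and 5 arrays, too few for a value within a chip. Both called pairs shifted together between these chips. Col6a1 averaged 11.255 on chip 3 and 11.848 on chip 4, and Col6a2 7.39 and 7.94. Col4a1 averaged 13.057 and 12.757, and Col4a2 12.464 and 12.259. The part of chip in these correlations was not tested.

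**Figure D5:**
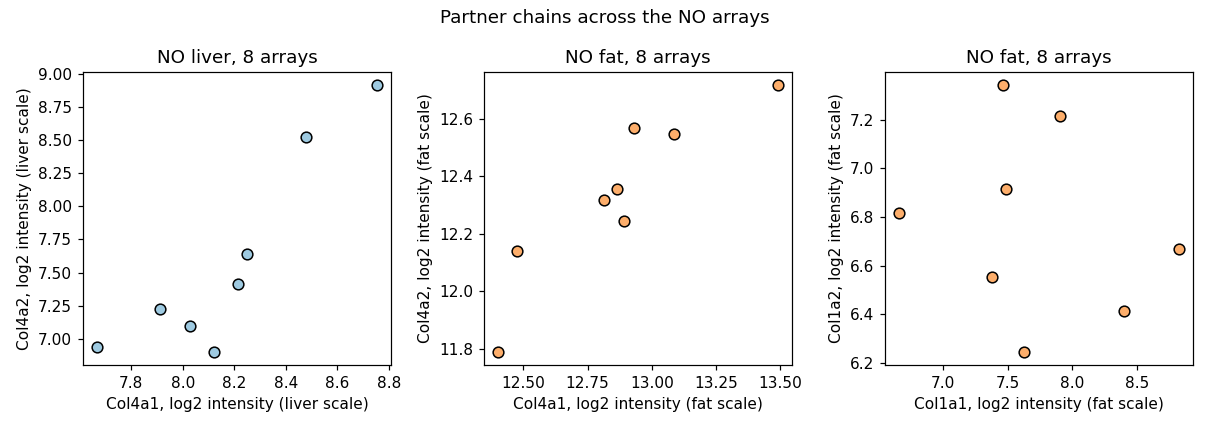
Log2 intensity of 1 chain against its partner on the 8 NO arrays of a tissue, each point an array, for Col4a1 and Col4a2 in liver and in fat and for Col1a1 and Col1a2 in fat. The type IV chains rise together (r = 0.900 and 0.906), and the type I chains do not (r = −0.216).

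Between tissues, under NO, 17 of the 18 genes differed, 16 higher in fat and Col18a1 higher in liver. Across all genes 73.9% of 8654 differed, 44% higher in fat and 29.9% lower. Of the 18 genes, 12 had passed detection through fat alone, and for these a higher signal in fat is built into the choice, so the count is a description. The median over all genes was 0.22, and over the members 1.93, on the log2 scale of all 31 arrays normalized together. Among the 6 genes kept in both tissues, Col6a1 was 41.5-fold higher in NO fat than in NO liver (11.62 against 6.25, log2 difference 5.38, standard error 0.22, adjusted p = 6.17e-20 from limma). Col4a2 was 26.6-fold, Col4a1 25.6-fold, Col5a1 19.3-fold and Col15a1 13.7-fold higher in NO fat, all called. In NO liver Col6a1 was detected on 3 of 8 arrays and Col15a1 on 4, so their folds rest partly on signal near background.

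Col18a1 went the other way. It was 2.66-fold lower in NO fat than in NO liver (11.59 against 13.00, log2 difference −1.41, standard error 0.10, adjusted p = 2.17e-13, limma). Of the fibril chains kept in fat alone, Col3a1 had a mean of 10.30 in NO fat and 5.38 in NO liver and was called, but it was detected on 1 of 8 NO livers, so no fold is given. Col1a1, Col6a2 and Col1a2 were not above background on any liver array and were at least 2.55-fold, 2.58-fold and 1.31-fold higher in NO fat. Col14a1, a fibril-associated chain, was the 1 gene not called, at −0.30 (adjusted p = 0.180).

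Under IH 15 of the 18 genes differed between tissues, 14 higher in fat and Col18a1 lower, where 78.3% of all genes differed. As under NO, 12 of the 18 had passed detection through fat alone, so this count too is a description. The median over the members was 2.09, beside 0.26 over all genes. Col6a1 was 61.8-fold, Col4a2 34.7-fold, Col4a1 34.3-fold, Col5a1 22.5-fold and Col15a1 13.6-fold higher in IH fat than in IH liver, and Col18a1 was 2.83-fold lower. Col6a1 and Col15a1 were each detected on 5 of 7 IH liver arrays, so their folds rest partly on signal near background. Bounds in IH fat were at least 7.63-fold for Col1a1, 5.86-fold for Col6a2 and 1.82-fold for Col3a1. Col14a1, Col1a2 and Col5a2 were not called, and Col5a2 was below background on every IH array of both tissues.

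The difference between tissues in the IH effect was tested in 1 model over all 31 arrays. For 8 of 18 genes the effect of IH in fat differed from that in liver, where 22.1% of all genes did, 10.1% above and 12% below 0. The median over the members was 0.30 and over all genes 0.11. The effect was lower in fat for Col3a1 (−3.13, adjusted p = 7.44e-08), Col1a2 (−1.74, adjusted p = 1.39e-06) and Col5a2 (−1.47, adjusted p = 9.08e-07, limma). It was higher in fat for Col1a1 (1.45, adjusted p = 0.000353), Col23a1 (1.32, adjusted p = 0.000346), Col6a2 (1.21, adjusted p = 0.00057), Col4a4 (0.82, adjusted p = 0.0293) and Col4a5 (0.72, adjusted p = 0.0304). In liver Col3a1 was detected on 1 array and the other 7 on 0, so the liver side of these values is signal near background. All 8 had passed detection through fat alone. Their values therefore largely repeat the differences in fat and do not show how these genes respond in liver. With chip as a random block, Col4a4 (adjusted p = 0.0811) and Col4a5 (adjusted p = 0.0902) were no longer called, nor were they without the 3 arrays that carried epididymis genes (adjusted p = 0.0802 and 0.0597).

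For the 6 genes kept in both tissues the difference between tissues was not called. It was 0.57 for Col6a1 (adjusted p = 0.203, limma), 0.42 for Col4a1 (adjusted p = 0.465) and 0.38 for Col4a2 (adjusted p = 0.525). Values of 0.22 for Col5a1, −0.09 for Col18a1 and −0.01 for Col15a1 lay closer to 0.

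Genes that act on collagen were read from 5 lists. In liver 0 list genes were called, of 5 measured for procollagen processing and cross-linking, 5 for collagen turnover, 12 for collagen-binding matrix proteins, 2 for receptors and 12 for TGF-beta inputs and matrix feedback. The smallest p in each list belonged to Bmp1, which cuts procollagen ends (−0.29, adjusted p = 0.277), the lysosomal protease Ctsl (−0.40, adjusted p = 0.464), the fibril-binding proteoglycan Lum (−0.51, adjusted p = 0.235), the integrin subunit Itgb1 (−0.59, adjusted p = 0.146) and the TGF-beta co-receptor Tgfbr3 (0.43, adjusted p = 0.181, limma). The next 2 of each list differed by −0.51 (Pcolce2) and −0.16 (Crtap), −0.38 (Mmp14) and −0.16 (Ctsb), −0.29 (Tnxb) and 0.32 (Sparc), and 0.30 (Ltbp4) and 0.23 (Tgfbr1), and the second receptor, Itga1, by 0.16. Among the enzymes that hydroxylate collagen chains, P4ha1 fell by 1.54 in liver (adjusted p = 0.00261), and P4ha2, Plod1 and Plod3 were not called. In fat P4ha1 differed by −0.07 (adjusted p = 0.820), and 0 of the 6 measured genes of this kind, which include the collagen chaperone Serpinh1, were called.

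In fat the processing list had 1 gene higher and 1 lower of 10 measured, and the turnover list 2 lower of 13, both below the 32.1% called over all genes. Pcolce, which speeds the cleavage of procollagen ends, was higher by 0.47 (standard error 0.16, adjusted p = 0.0348, limma). Pcolce2, its relative, was lower by −2.41 (adjusted p = 4.23e-06) on its brightest probe and differed by −0.02 on its other probe. Crtap, part of a complex that modifies prolines of collagen, differed by 0.32 (adjusted p = 0.226). The turnover genes called were the fibroblast protease Fap (−1.21, adjusted p = 3.9e-05) and the lysosomal protease Ctsb (−1.06, adjusted p = 7.71e-05), each on its only kept probe. Timp1, an inhibitor of matrix proteases, differed by 1.11 and missed the call (adjusted p = 0.0539). The medians of the processing and turnover lists were −0.00081 and 0.02, beside 0.11 over all genes.

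Of 21 collagen-binding matrix proteins in fat 3 were higher and 2 lower, a smaller share than the 32.1% called over all genes. Fmod and Bgn, proteoglycans that bind fibrils, were higher by 1.03 (adjusted p = 0.00533) and 0.46 (adjusted p = 0.0247), and the laminin chain Lamb2 by 0.50 (adjusted p = 0.0437, limma). Sparcl1, a matricellular protein, was lower (adjusted p = 1.39e-09), with 8.13 ± 0.40 in NO fat and 5.17 ± 0.40 in IH fat (SD, n = 8 each), where 3 of 8 arrays detected it. Lamb1, another laminin chain, stayed below detection on all 8 IH arrays and was at least 3.79-fold lower (adjusted p = 2.32e-09). Lamb1 passed the detection limit through its 8 NO arrays alone. Its separation and its p-value are therefore partly built into that choice. Sparcl1 and Lamb1 each had 1 kept probe, so no second probe could be set beside either fall. The median of this list was 0.01.

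Of 6 collagen receptors in fat 1 was called (32.1% over all genes), Cd36, which also takes up fatty acids. It had 9.23 ± 0.25 in NO fat and 5.91 ± 0.70 in IH fat (SD, n = 8 each), a difference of −3.32 (adjusted p = 7.85e-09, limma). Cd36 had 1 kept probe, so no second probe could be set beside this fall. The integrin subunits Itga11 and Itga1 differed by 0.37 (adjusted p = 0.433) and 0.21 (adjusted p = 0.550). Of 17 genes of TGF-beta input and matrix feedback 3 were higher and 0 lower, where 17.6% of all genes tested in fat were higher, so the count does not set the list apart. Tgfb1, the ligand, was higher by 0.92 (adjusted p = 0.00147), Ltbp4, which stores the latent ligand in the matrix, by 0.49 (adjusted p = 0.0114), and Ccn2, a target of the pathway, by 1.02 (adjusted p = 0.0372). The medians were 0.14 for the receptors and 0.04 for the TGF-beta list.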

How the data were processed

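The arrays measured RNA of 15 liver and 16 fat samples, grouped by the tissue and exposure in the sample records. The intensity of each probe and its detection p-value were deposited by the authors, who exported them from GenomeStudio. Although deposited under a name for values before normalization, the arrays share 1 distribution, with sorted values that differ by at most 0.513% between the 1st and 99th percentiles. Further normalization by the authors kept the rank order of the probes (rank correlation 1). RNA was extracted with TRIzol by the methods, with a column kit by the records.

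Signals were background-corrected and quantile normalized with neqc of limma 3.58.1 (R 4.3.3, offset 16), which takes the log2 and infers the negative controls from the detection p-values. Comparisons within a tissue used that tissue's arrays, and comparisons between tissues all 31. A gene symbol was given for 23978 of 25697 probes. Where several probes of a gene were kept the brightest stood for it, which left 6443 genes in liver, 8207 in fat and 8654 in either. Groups were compared with lmFit and eBayes of limma, two-sided, with Benjamini-Hochberg adjustment over all genes tested, and called at an adjusted p under 0.05. Exact permutation tests ran over all 6435 or 12870 splits of the arrays and over all pairings in Python 3.11.15. The gene tests were tried on simulated data.

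Named were the chains of types I, III, IV (Col4a1, Col4a2), V (Col5a1, Col5a2), VI, XV and XVIII, the called genes, those with the largest differences between tissues, the genes of small counts and the 3 list genes of smallest p in each tissue. The collagen genes, lists and tests were chosen with earlier results of these data known. Alternatives tried were another offset, detection limit or probe rule, the deposited signal, the authors' processed values, array weights, chip as a block, the replicate number as a block, and each array left out. The number of arrays limits the precision.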

Additional observations from a re-analysis of the deposited data

Results flagged for a closer look

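Col18a1 on the array of IH fat replicate 17 stood apart from its group, at a log2 intensity of 12.1 where the next array had 11.71. This was 1 of 48 groups of arrays tested in this way, and chance would give about 1 in 20.

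The effect of IH in fat differed from that in liver for 8 collagen genes, by a test of that difference in limma. The difference, fat minus liver on the log2 scale, was −3.13 for Col3a1, −1.47 for Col5a2 and −1.74 for Col1a2. It was 1.32 for Col23a1, 1.45 for Col1a1, 1.21 for Col6a2, 0.82 for Col4a4 and 0.72 for Col4a5. In liver Col3a1 was detected on 1 of 15 arrays and the other 7 genes on 0. All 8 had passed detection through fat alone, so these values largely repeat the differences in fat.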

How the results depend on the processing

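With each array left out in turn, the collagen genes called numbered 0 to 0 in liver, 8 to 9 in fat, 16 to 17 between tissues under NO, 15 to 15 under IH and 8 to 9 for the difference of the IH effect, and 2 to 4 of the partner relations were called. Detection on every array of a tissue left 4 collagen probes in liver and 13 in fat, against 13 probes in liver at a detection p under 0.05. With that strictest limit 4 genes were called in fat, and 3, 3 and 0 of 3 between tissues under NO, under IH and for the difference of the IH effect. These falls go with fewer genes tested. With no detection limit 23 of 37 genes were called between tissues under IH. The share called over all genes was not counted under these settings, nor with the replicate block below. These counts therefore do not set the collagen genes apart.

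The sign turned for small differences. In liver, Col6a1 had −0.017 on the deposited signal, −0.026 on the authors' processed values and −0.011 with an offset of 50, and Col4a2 had 0.088 with array weights. Col1a2 between tissues under IH had 0.018 with array weights. The difference of the IH effect for Col15a1 was 0.0079 on the deposited signal, 0.060 with array weights and 0.32 without the 3 arrays that carried epididymis genes. Without these arrays Col5a1 in fat was 0.11 and Col17a1 −0.079. With single arrays left out, values ran from −0.23 to 0.057 (Col4a2), −0.12 to 0.21 (Col6a1) and −0.074 to 0.29 (Col15a1) in liver, from −0.23 to 0.022 (Col5a1), −0.12 to 0.25 (Col15a1) and −0.035 to 0.082 (Col18a1) in fat, and from −0.21 to 0.16 for the difference of Col15a1. The cause was not tested.

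Col6a1 in fat lost its call with the mean of its probes (0.19, adjusted p = 0.350, range over its alternatives 0.0136 to 0.350, limma). The difference of Col4a4 was not called on the deposited signal (adjusted p = 0.0551, range 0.0138 to 0.0811). Without the 3 arrays that carried epididymis genes neither Col4a4 (0.59, adjusted p = 0.0802) nor Col4a5 (0.60, adjusted p = 0.0597, range 0.016 to 0.0902) was called for the difference. That of Col6a1 was called on the deposited signal (0.60, adjusted p = 0.0392, range 0.0392 to 0.566).

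The replicate number as a block (replicate block) left the calls at 17 and 15 between tissues and 8 for the difference of the IH effect. The records do not say that a number is 1 mouse. Same-numbered liver and fat samples deviated together (r over 0.1) in 8 of 15 pairs, and 8 samples matched their own number best. The median r was 0.13 (−0.0291 to 0.216). The number of such matches by chance was not counted. The main comparisons between tissues treat all samples as independent.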
